A study of Rattus norvegicus with 13 samples.

Results

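Gene expression in oval cells was set against that in preneoplastic foci of the same rat liver model, over 6 oval cell arrays and 5 foci arrays of the 13 in the series. Arrays were assigned by their source label, the 2 arrays of control liver were left out, and all genes above a signal limit were compared. Male Fischer rats had received a single dose of the carcinogen diethylnitrosamine, a diet with 2-acetylaminofluorene and a partial hepatectomy (the Resistant-Hepatocyte model), a treatment that both groups share. Oval cells were laser-microdissected from stained sections 1 week after surgery, on morphology and on immunostaining of CK-19, GSTP and GGT, and each array holds a pool. Preneoplastic foci, small round clusters of altered hepatocytes known by markers such as GSTP, were taken at the same time point and pooled likewise. The level of Krt19, which encodes CK-19, and of Gstp1 is therefore no finding of its own. The question behind the contrast was how far the 2 lesions that grow side by side after surgery differ in their transcripts.

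Oval cells are small cells with an oval nucleus that spread from the portal tracts when hepatocytes cannot divide. They carry keratins and surface proteins of the bile duct lining, and they lie in a sheath of stellate cells, macrophages and new matrix. Foci arise when hepatocytes initiated by a carcinogen go on dividing while their neighbours are held back by the drug. Such hepatocytes are known for a raised set of detoxifying enzymes, many of them under the transcription factor Nrf2, which binds antioxidant response elements of the DNA.

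Some limits bear on every value. Slide 1 carried the oval cell arrays and slide 2 those of foci, so the difference between slides coincides with that between groups and both cannot be told apart. The oval cell arrays outnumber the animals named by the study, so some share an animal, foci pools may share animals too, and the p-values given here are smaller than they should be. Microdissected tissue holds more than one cell type, and fewer cells of a type cannot be told apart from less RNA per cell. Deposited intensities had been normalized by quantiles, which gives each array the same distribution, with 26.8% of probes above an intensity of 300 on all 11 arrays. Over the tested probes arrays correlated at r = 0.970 to 0.994 among oval cells, at 0.980 to 0.993 among foci, and at 0.866 to 0.927 between the groups.

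Of 22523 probes, 6559 had a median intensity over 300 in oval cells, in foci or in both, and 5165 of these carried a gene symbol, for 5092 genes. Dpep1, just inside that limit, had medians of 300.3 in oval cells and 152 in foci, and Smad6, just outside it, 299.9 in oval cells and 210.4 in foci. Fold changes are the fitted log2 difference of oval cells minus foci after background correction with an offset of 50, turned into a ratio. In limma 1026 probes (15.6% of those tested) differed at an adjusted p under 0.05 and by at least 2-fold, and such probes are referred to as called. Of these, 557 were higher and 469 lower in oval cells, so that 54.3% were higher. When arrays were centred on ribosomal protein probes, 1106 were called and 35.4% of them were higher, because that centring moved the median of all probes to -0.20, against -0.03. Without the limit on fold, 4730 probes (72.1%) passed the adjusted p, 2327 higher and 2403 lower, with a median standard error of 0.09 on the log2 scale. The 95% interval of the difference lay inside 2-fold either way for 4867 probes (74.2%).

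By gene, each given by its brightest probe, 472 (9.27%) were called higher and 322 (6.32%) lower in oval cells. The differences were unlike in shape on the 2 sides. At 4-fold or more there were 101 probes higher and 65 lower, but at 8-fold or more 6 were higher and 17 lower. Of the called probes 1003 had groups whose arrays did not overlap, as did 53.8% of all probes tested, and 23 had groups that overlapped. For 226 called probes the dimmer group had no array above 300, and their fold is a lower bound (at least), the mean log2 intensity of the brighter group set against 300. Where the dimmer group had a mean under 300 but not every array, the fitted size is uncertain, which holds below for Ccr1, Cebpa, Col1a1, Cyp17a1, Dao, Fads2, Hsd17b2, Olfml2b, Plet1 and Vwf. A filter that admits a probe through 1 group alone favours large differences, since 1083 probes exceeded the limit in a single group and 312 of them were called.

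**Figure D1:**
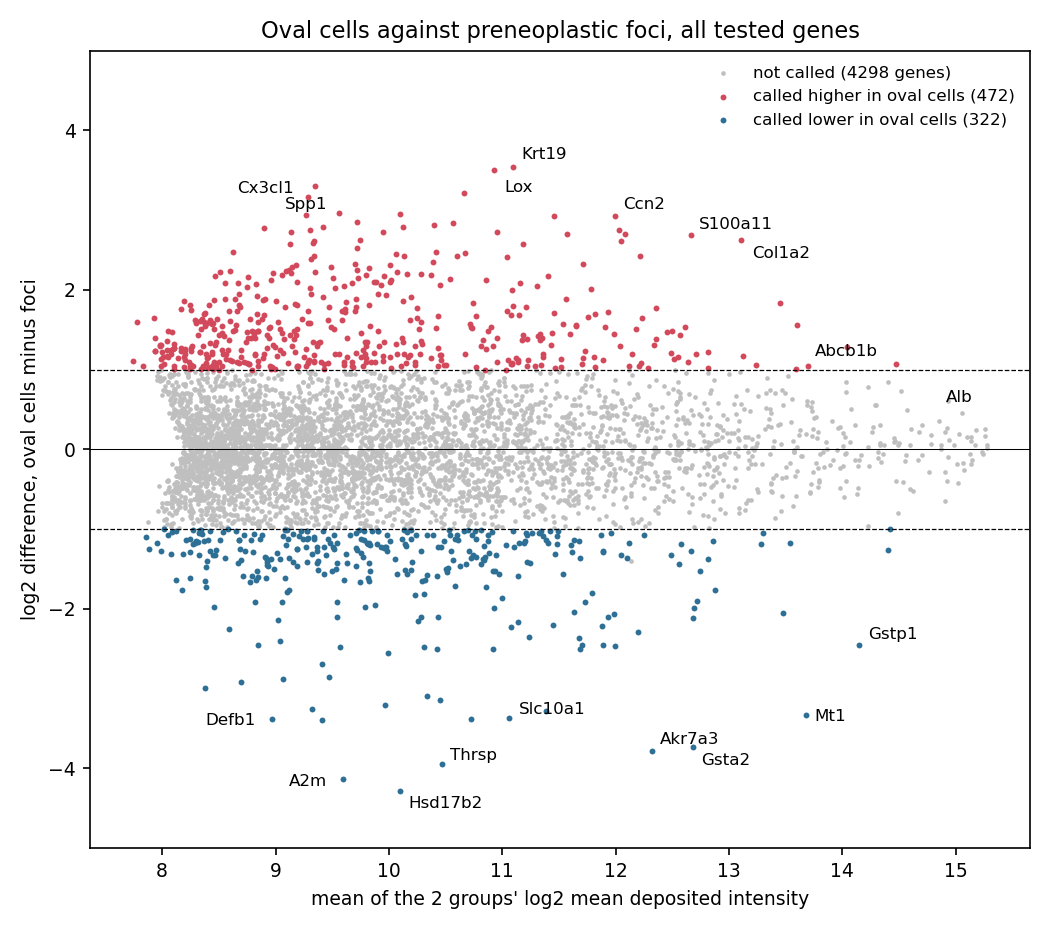
Log2 difference of oval cells minus preneoplastic foci (vertical axis) against the mean log2 intensity of both groups (horizontal axis) for 5092 genes, with dashed lines at 2-fold. The 472 genes called higher reach 3.54 (Krt19), while the 322 called lower reach -4.29 (Hsd17b2).

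Krt19, a keratin of bile duct cells, led the genes higher in oval cells. It had an intensity of 5363, 7061 and 8286 in oval cells (lowest, median and highest of 6 arrays, an order kept throughout), against 433, 1248, 726, 506 and 591 in foci. All oval cell arrays lay above the foci arrays, among which replicate 2 was the highest. The difference was 11.6-fold (log2 difference 3.54 ± 0.24, SE, adjusted p = 3.62e-08; here and later n = 6 oval cell and 5 foci arrays). The protein of this gene had helped to choose the cells.

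Most of the other tested biliary and progenitor markers were higher too. Of 28 listed genes 23 had a named probe, 17 were tested, and 14 of those were called higher and 0 lower, with a median log2 difference of 1.59 against 0.01 over all genes tested. Of the defining markers of this cell type 6 were tested and all 6, Krt19, Krt7, Epcam, Cd24, Tspan8 and Spp1, were called higher in oval cells. Krt19, whose protein had helped to choose the cells, is included in both counts. The list was chosen with earlier results of these data known. Cd24, a surface glycoprotein of progenitor cells, had 5608, 7169 and 9688 in oval cells, against 917, 1770.2, 1400.2, 906 and 1171 in foci (6.5-fold, log2 difference 2.70 ± 0.19, SE, adjusted p = 4.85e-08). Epcam, an adhesion protein of simple epithelia, had 4465, 5459 and 6707 in oval cells, against 942, 1866, 1218, 1144 and 1418 in foci (4.51-fold, log2 difference 2.17 ± 0.16, SE, adjusted p = 6.94e-08). The tetraspanin Tspan8 was 6.62-fold higher. In each of the 3 genes the groups were well apart, and replicate 2 was the highest of the foci arrays.

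Spp1 (osteopontin), a secreted adhesion protein of bile duct cells, had 1488, 1603 and 2686 in oval cells, against 228, 401, 349.8, 313 and 235 in foci (7.76-fold, log2 difference 2.96 ± 0.22, SE, adjusted p = 6.79e-08). Plet1, a surface protein of epithelial progenitors, was 7.65-fold higher. The mucin Muc1 was at least 2.08-fold higher. Krt7, the other duct keratin that the study names, was dim, with 293, 333 and 413 in oval cells, against 174, 247, 199.7, 176 and 195 in foci. It was at least 1.11-fold higher (log2 difference 1.07 ± 0.14, SE, adjusted p = 1.26e-05); without background correction the difference fell under the 2-fold limit (log2 difference 0.76). The 2 keratins thus differed in signal, with Krt7 near the limit and Krt19 far above it in oval cells.

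Markers of stellate cells and matrix were higher as a group as well. Of 43 listed genes 34 had a named probe and 27 were tested, of which 25 were called higher and 0 lower, with a median log2 difference of 2.09. The list was chosen with earlier results of these data known, and Lox, a gene given with the comparison, is among the 25. Lox, the enzyme that cross-links collagen, had 4639, 6121 and 8307 in oval cells, against 448, 870.1, 689, 466 and 604 in foci. The groups did not overlap, and the difference was 11.4-fold (log2 difference 3.51 ± 0.21, SE, adjusted p = 1.25e-08). Col1a2, a chain of fibrillar collagen, was among the brightest probes of the list, with 18132, 21435 and 24833 in oval cells, against 2387, 5573, 3812, 2861 and 3648 in foci (6.17-fold, log2 difference 2.63 ± 0.18, SE, adjusted p = 3.35e-08). Col1a1 and Col3a1 were 4.72-fold and 5.11-fold higher. Thus the collagens lay clearly above the limit of 300 in oval cells, and Col1a1 alone of these 3 had a foci mean under it.

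Plod2, which hydroxylates collagen lysines, had 2457, 3400.1 and 4289 in oval cells, against 472, 653, 609, 457 and 503 in foci (7.08-fold, log2 difference 2.82 ± 0.14, SE, adjusted p = 5.72e-09). Adamts2, which trims procollagen, was 7.74-fold and Loxl2 at least 1.77-fold higher. The proteoglycan Dcn was 5.5-fold, the secreted glycoprotein Fstl1 6.09-fold and the microfibril protein Fbn1 at least 2.64-fold higher. Des and Vim, intermediate filament proteins of stellate and other mesenchymal cells, were at least 1.75-fold and 3.4-fold higher, and the growth factor receptor Pdgfra at least 2.22-fold. Msln, a surface protein of mesothelial cells, was 6.91-fold higher, and so was Olfml2b, a secreted matrix protein (6.94-fold).

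**Figure D2:**
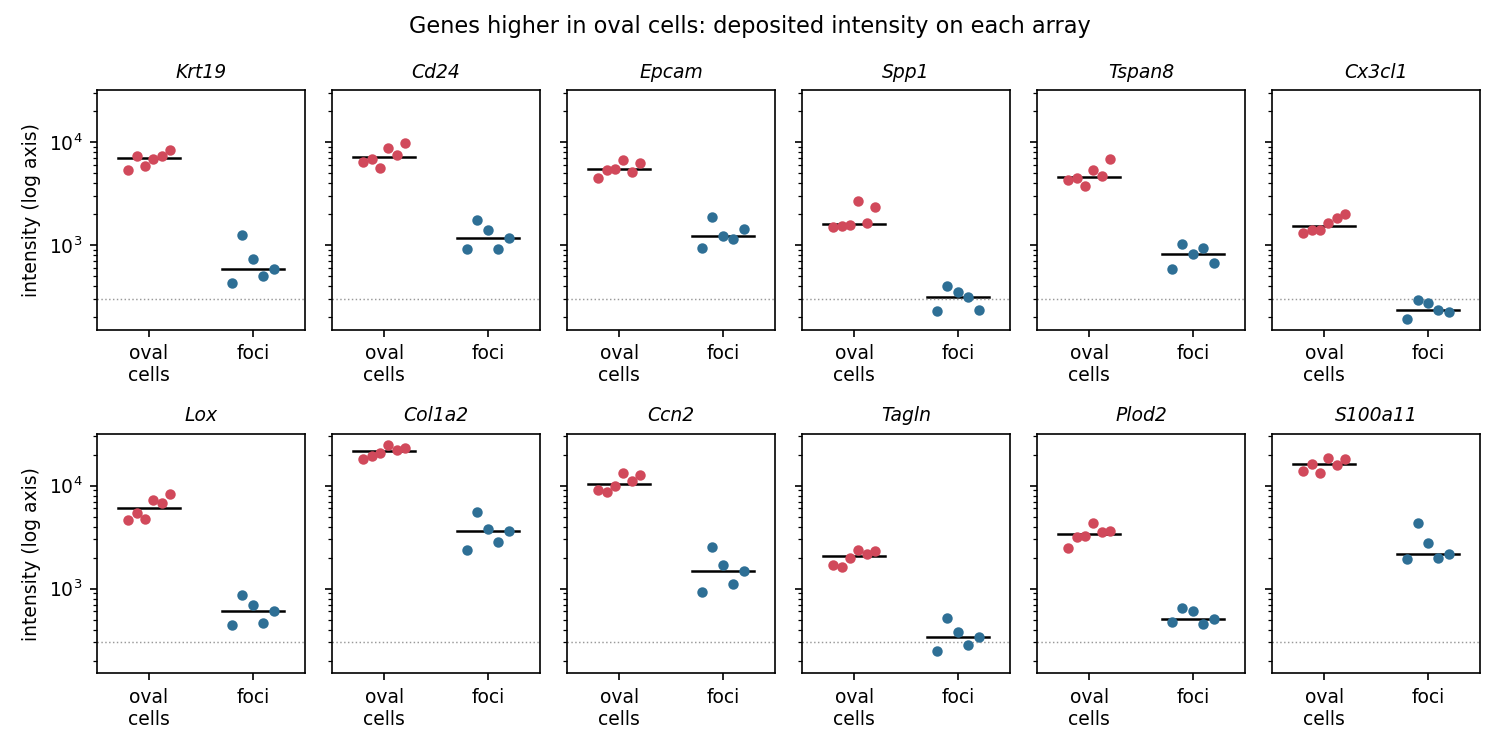
Deposited intensity (log axis) of 12 genes higher in oval cells, a point per array with oval cells left and preneoplastic foci right, the bar at each median and a dotted line at 300. In all 12 panels the 6 oval cell arrays lie above the 5 foci arrays. Lack of overlap helped to choose some of these genes and held for 53.8% of all probes tested. The fitted difference was 11.6-fold for Krt19 and 4.51-fold for Epcam.

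Genes that respond to YAP and to TGF-beta, regulators of growth and matrix, were followed through Ccn2. Ccn2 encodes a secreted matricellular protein and is a classical target of YAP with its DNA-binding partner TEAD. Its promoter is shown because its letters hold the TEAD motif more than once: RefSeq on GRCr8 places it at chr1:22624565-22624864 on the minus strand, 250 bases before to 50 after the start. Capitals mark each GGAATG, the TEAD motif, whose matches begin 166, 101 and 92 bases before the start.
Ccn2 promoter: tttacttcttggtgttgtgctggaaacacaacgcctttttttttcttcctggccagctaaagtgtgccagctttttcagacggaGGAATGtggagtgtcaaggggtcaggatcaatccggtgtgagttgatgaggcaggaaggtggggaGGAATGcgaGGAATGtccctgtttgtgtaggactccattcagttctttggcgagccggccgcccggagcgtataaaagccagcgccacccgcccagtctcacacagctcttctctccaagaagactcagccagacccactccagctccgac
Its intensity was 8673, 10454 and 13278 in oval cells, against 929, 2515, 1693, 1114 and 1469.8 in foci. The arrays of the 2 groups were far apart, and the difference was 7.64-fold (log2 difference 2.93 ± 0.22, SE, adjusted p = 9.01e-08).

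Of 15 listed YAP target genes 12 had a named probe and 7 were tested, of which 5 were called higher and 0 lower. Ccn1, a relative of Ccn2, was 3.32-fold higher, Fjx1 at least 2.21-fold and Crim1 at least 1.33-fold. Ajuba, a LIM protein of the same pathway, differed by 0.67 and was not called. Without background correction 3 of the 7 were called higher. All 7 have a promoter in the table, and 4 of these hold the TEAD motif on either strand, against 11.7% of the 4293 tested genes with a promoter. Pmepa1, a feedback inhibitor of TGF-beta signalling, had 3600.2, 4627 and 5407 in oval cells, against 435, 849, 601, 440.4 and 539.6 in foci (9.23-fold, log2 difference 3.21 ± 0.18, SE, adjusted p = 1.11e-08), and the ligand Tgfb2 was at least 1.4-fold higher. Tagln, an actin-binding protein of contractile cells that TGF-beta induces, had 1627, 2074 and 2375 in oval cells, against 245, 512, 377, 285 and 342 in foci (7.23-fold, log2 difference 2.85 ± 0.20, SE, adjusted p = 4.5e-08). The actin cross-linker Flna was 5.96-fold, the tropomyosin Tpm4 3.42-fold and the tubulin Tuba1a 3.24-fold higher, among 9 of 22 tested cytoskeleton genes called higher and 0 called lower.

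Markers of other cells of the portal tract had smaller medians in the same direction, 0.88 for endothelial and 0.81 for macrophage markers. Of 8 tested endothelial markers 2 were called higher, the platelet adhesion protein Vwf (6.02-fold) and Egfl7 (at least 1.59-fold, and log2 difference 0.80 without background correction, under the limit). Egfl7 also lost its call without any of 6 single arrays (0.97 to 1.00). Emcn and Tie1 differed by 0.87 and 0.89 on the log2 scale and were not called. A second Tie1 probe, dimmer, differed by 0.38. Of 15 tested macrophage and Kupffer cell markers 5 were called higher and 0 lower. Marco, a scavenger receptor, had 905, 1919 and 2308 in oval cells, against 457, 350.3, 366, 447 and 352 in foci (5.01-fold, log2 difference 2.33 ± 0.21, SE, adjusted p = 5e-07). Laptm5, a lysosomal protein of leukocytes, was 3.6-fold and Aif1 2.78-fold higher. The resident Kupffer cell receptor Cd163 and the complement gene C1qa differed by 0.26 and 0.48, and neither was called. Past the adjusted p alone all 15 macrophage markers, both of these included, were higher, as were 7 of the 8 endothelial markers. Of all probes tested 72.1% passed it, 2327 higher and 2403 lower.

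Of 6 tested genes of MHC class II, which present antigen, 2 were called higher, RT1-Da (2.43-fold) and RT1-Db1 (2.97-fold). All 6 were higher past the adjusted p alone, which 72.1% of all probes tested passed in either direction. The invariant chain Cd74 lay just under the limit at 0.99, and 4 of the 6 were called without oval cells replicate 4 and likewise without foci replicate 2. Of 6 tested lymphocyte markers 1 was called, the cytotoxic granule protein Nkg7 (2.84-fold), while the defining markers Cd3d, Cd3e, Cd79b and Ms4a1 stayed at or under a median of 300 in both groups. Without oval cells replicate 3, 2 of the 6 were called. No tested neutrophil or erythroid gene was called. S100a8 differed by 0.20, and the alpha globin gene Hba-a1 by -0.91, with intensities of 1387, 2029.7 and 3349 in oval cells, against 3631, 3858, 3453, 3451 and 4231 in foci. Hba-a1 was called lower without oval cells replicate 3 (-1.06).

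The tested members of each marker list were also summed on single arrays. The 17 biliary genes summed to 33329 to 47547 in oval cells, against 9416 to 13349 in foci, and the 27 stellate and matrix genes to 99106 to 134480 in oval cells, against 23401 to 41586 in foci. Macrophage markers summed to 34183 to 47491 in oval cells, against 18529 to 23563 in foci, and endothelial markers to 7558 to 9547 in oval cells, against 4865 to 5670 in foci. None of these ranges overlapped, which was also so for 53.8% of all single probes tested. The 36 secreted plasma protein genes, products of hepatocytes, summed to 551339 to 680947 in oval cells, against 589096 to 691348 in foci, and their ranges did overlap. The part that the makeup of the microdissected areas had in any gene's difference was not tested.

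**Figure D3:**
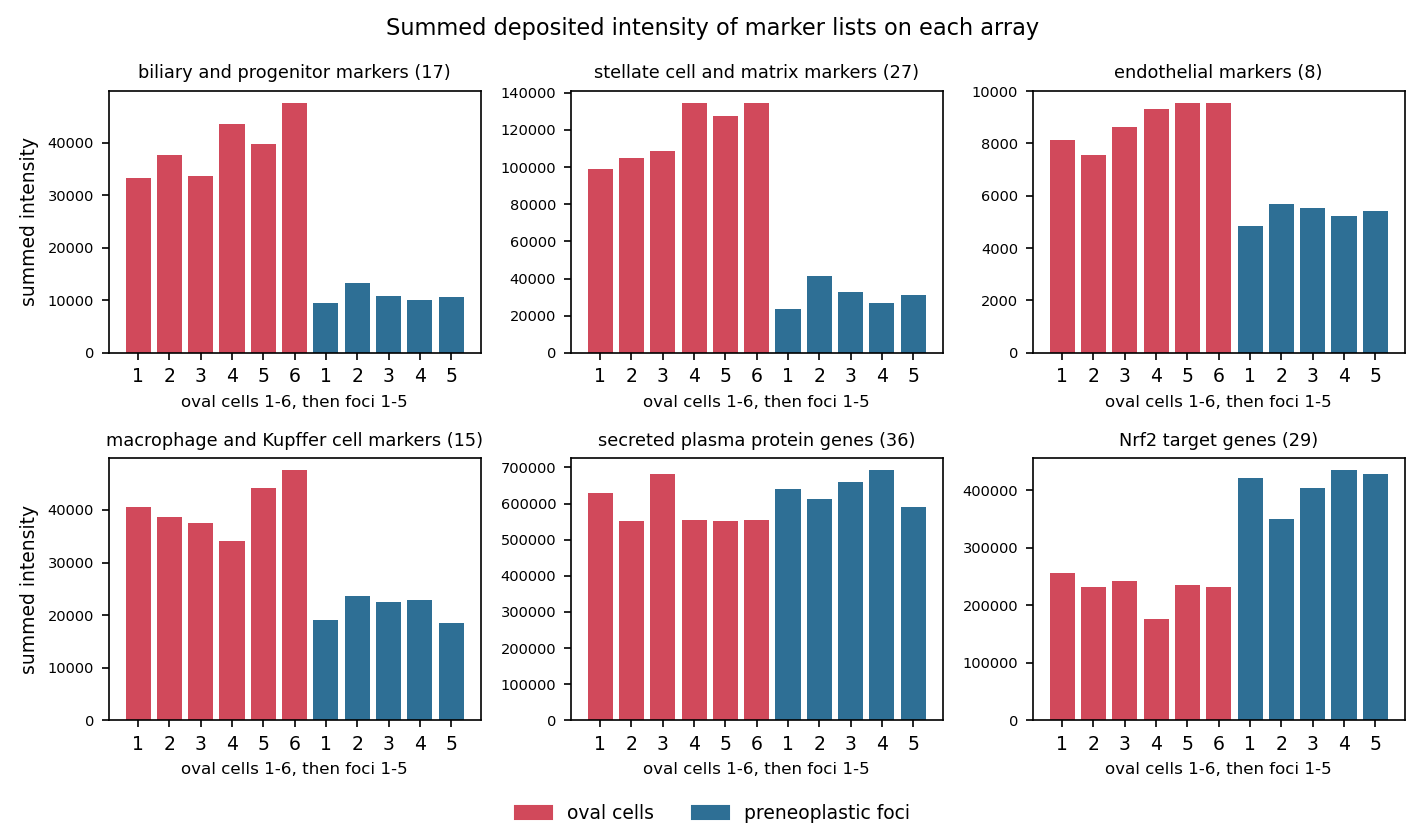
Summed deposited intensity of the tested members of 6 gene lists on each array, with the 6 oval cell arrays left and the 5 preneoplastic foci arrays right and the number of genes in brackets. The biliary, stellate, endothelial and macrophage sums are higher on every oval cell array, Nrf2 target sums are lower on every oval cell array, and plasma protein sums overlap.

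Chemokines attract leukocytes and stellate cells to the niche. Of 14 tested chemokines and receptors 8 were called higher and 2 lower. Cx3cl1 (fractalkine), a membrane-bound chemokine that binds monocytes, had 1312, 1523 and 2012 in oval cells, against 192, 292, 277, 233 and 225 in foci, so that every foci array lay under 300 and the difference was at least 5.28-fold (log2 difference 3.16 ± 0.16, SE, adjusted p = 5.25e-09). Cxcl12, the ligand of the receptor Cxcr4, was 4.01-fold higher and Cxcr4 itself at least 1.33-fold. Cxcl16 and Cxcl1 were 4.36-fold and 4.3-fold higher, and the receptor Ccr1 2.36-fold. Opposed to these were Cxcl9 and Cxcl11, which interferon induces, while Cxcl10 of the same list differed by -0.18 and was not called. Cxcl9 had 580.5, 1144 and 1749.9 in oval cells, against 2183, 2525, 2741, 2686 and 3079 in foci (2.54-fold lower, log2 difference -1.35 ± 0.24, SE, adjusted p = 0.000207). Cxcl11 was 2.44-fold lower with overlapping groups, and its log2 difference fell short of the limit without oval cells replicate 4 (-0.99).

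Calcium- and sugar-binding proteins of the S100, annexin and galectin families, which are rich in epithelial and mesenchymal cells, were called higher in 12 of 22 tested members and lower in 1. S100a11 had 13128, 16105 and 18582 in oval cells, against 1949, 4289, 2784, 1979 and 2154 in foci (6.47-fold, log2 difference 2.69 ± 0.19, SE, adjusted p = 4.32e-08). Lgals1, Lgals2 and Anxa1 were 7.18-fold, 5.32-fold and 5.54-fold higher, and S100a4 5.4-fold. Lgals9 was the exception, 2.21-fold lower. Single genes of other kinds were among the 15 with the largest rise. Aoc1, which degrades histamine and polyamines, had 1088, 1596 and 2861 in oval cells, against 219.7, 241, 246, 250.3 and 223 in foci (at least 5.67-fold, log2 difference 3.30 ± 0.22, SE, adjusted p = 3.12e-08). Lpl, lipoprotein lipase, had 5346, 8051 and 9301 in oval cells, against 829.6, 1409.8, 1157, 995 and 856 in foci (7.64-fold, log2 difference 2.93 ± 0.18, SE, adjusted p = 1.3e-08).

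Genes of fetal liver were called higher in 3 of 5 tested members. Afp, alpha-fetoprotein, which the study names as a marker, had 6886, 10319.6 and 14607 in oval cells, against 2587, 5894, 3834, 2582 and 3737 in foci. The groups did not overlap, though the highest foci array, replicate 2, came near the lowest oval cell arrays, and the difference was 2.88-fold (log2 difference 1.53 ± 0.25, SE, adjusted p = 9.53e-05). Gpc3, a surface proteoglycan, was 4.7-fold and the growth factor Igf2 at least 1.16-fold higher. Abcb1b, a drug efflux pump, was called higher at 2.06-fold (log2 difference 1.04 ± 0.13, SE, adjusted p = 5.9e-06), but lay under the limit when centred on ribosomal protein probes (log2 difference 0.87). It was bright in both groups, with 15321, 19469 and 22575 in oval cells, against 7154, 9133, 10083, 11752 and 8430 in foci.

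The lower side of the contrast was led by Hsd17b2, an enzyme of the liver that oxidises estradiol and testosterone. It had 207, 266 and 339.9 in oval cells, against 3007, 1724, 5688, 8084 and 3659.6 in foci. Every foci array lay far above the oval cell arrays, most of which were under 300, and the fitted difference was 19.6-fold (log2 difference -4.29 ± 0.33, SE, adjusted p = 9.19e-08). A2m, a plasma protease inhibitor, had 163, 183 and 296 in oval cells, against 4020.2, 2431, 3551, 3771 and 602 in foci, where replicate 5 lay well below the others. It was at least 7.98-fold lower (log2 difference -4.14 ± 0.45, SE, adjusted p = 2.25e-06). Of 19 tested hydroxysteroid dehydrogenases and steroid reductases 5 were called lower and 1, Akr1c19, higher (2.12-fold). Akr1c12l1 and Akr1c13 were 3.14-fold and 2.58-fold lower, though members of this family are near-identical and their probes may read one another.

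Genes under Nrf2 were lower as a group. Of 36 listed genes 31 had a named probe and 29 were tested, of which 16 were called lower and 0 higher, with a median log2 difference of -1.40. The study had picked out this pathway and such focus markers on these same arrays, so the counts are not independent evidence of a direction. Akr7a3, an aflatoxin aldehyde reductase, had 536, 1573 and 1892 in oval cells, against 17162, 15014, 16881, 19361 and 20579 in foci (13.7-fold lower, log2 difference -3.78 ± 0.28, SE, adjusted p = 7.71e-08). Oval cell replicate 4 was by far the lowest array. Nqo1, a quinone reductase, had 546, 1591 and 1964 in oval cells, against 7399, 4435, 7346, 9153 and 7077 in foci (5.16-fold lower, log2 difference -2.37 ± 0.31, SE, adjusted p = 1.23e-05), again with replicate 4 lowest. Txnrd1, a thioredoxin reductase, spread less, with 367, 455 and 496 in oval cells, against 2595, 1889, 2077, 2277 and 2686 in foci (5.85-fold lower, log2 difference -2.55 ± 0.11, SE, adjusted p = 3.1e-09). Its lowest oval cell array was replicate 4 too, apart from the others.

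Gstp1, the placental glutathione S-transferase, carries in its promoter an AP-1 motif that runs on into an antioxidant response element core, which is why its letters are given. RefSeq on GRCr8 places the promoter at chr1:210769656-210769955 on the minus strand. Capitals mark the joint match of TGACNNNGC, the element core, and of TGAGTCA, the AP-1 motif, here read on the other strand, which both begin 61 bases before the start.
Gstp1 promoter: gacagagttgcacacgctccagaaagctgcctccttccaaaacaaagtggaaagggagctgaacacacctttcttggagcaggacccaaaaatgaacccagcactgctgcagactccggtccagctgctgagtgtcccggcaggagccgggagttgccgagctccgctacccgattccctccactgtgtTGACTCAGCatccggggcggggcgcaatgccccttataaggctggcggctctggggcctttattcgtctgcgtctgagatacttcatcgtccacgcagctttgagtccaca
The element core was present in 8 of 23 tested Nrf2 target genes with a listed promoter, on either strand, among them 6 of the 13 called lower, against 15.3% of all tested genes with a promoter. Gstp1 had 5282, 7917 and 10856 in oval cells, against 41982, 40575, 43186, 43186 and 41138 in foci (5.52-fold lower, log2 difference -2.46 ± 0.15, SE, adjusted p = 1.3e-08). It was the brightest of all probes on 2 foci arrays, and since quantile normalization sets the top value of an array, this fold is uncertain in size. A second Gstp1 probe, dimmer, was called in the same direction (log2 difference -3.05).

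Among 18 tested glutathione S-transferases 7 were called lower and 0 higher, with 446, 1669 and 4226 for Gsta2 in oval cells, against 22685, 14845, 22168, 24945 and 20243 in foci (13.3-fold, log2 difference -3.73 ± 0.46, SE, adjusted p = 8.18e-06). Its oval cell arrays spread widely, yet none reached the foci. Gsta4, which conjugates products of lipid oxidation, was 6.46-fold lower, and probes of this family too may read one another. Gclm, a subunit of the enzyme that starts glutathione synthesis and a gene named after its value was seen, was 4.9-fold lower. Ugp2 and Ugdh, which supply UDP-glucose and UDP-glucuronate, were 5.45-fold and 4.33-fold lower. The reductases Akr1b8 and Ptgr1 were 5.66-fold and 5.55-fold lower, and the efflux pump Abcc3 2.72-fold. Of 13 tested genes for UDP-glucuronosyltransferases and sulfotransferases, which attach glucuronic acid or sulfate, 4 were called lower and 0 higher, with a median log2 difference of -0.77. Of 14 tested focus markers that the study picked, 8 were called lower and 1, Abcb1b, higher. The 8 are all among the Nrf2 target genes called lower. So are Gsta2, Gsta3, Gsta4 and Gstp1 of the glutathione S-transferases and Ugt1a6 of the glucuronosyltransferases, and these counts are not separate.

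**Figure D4:**
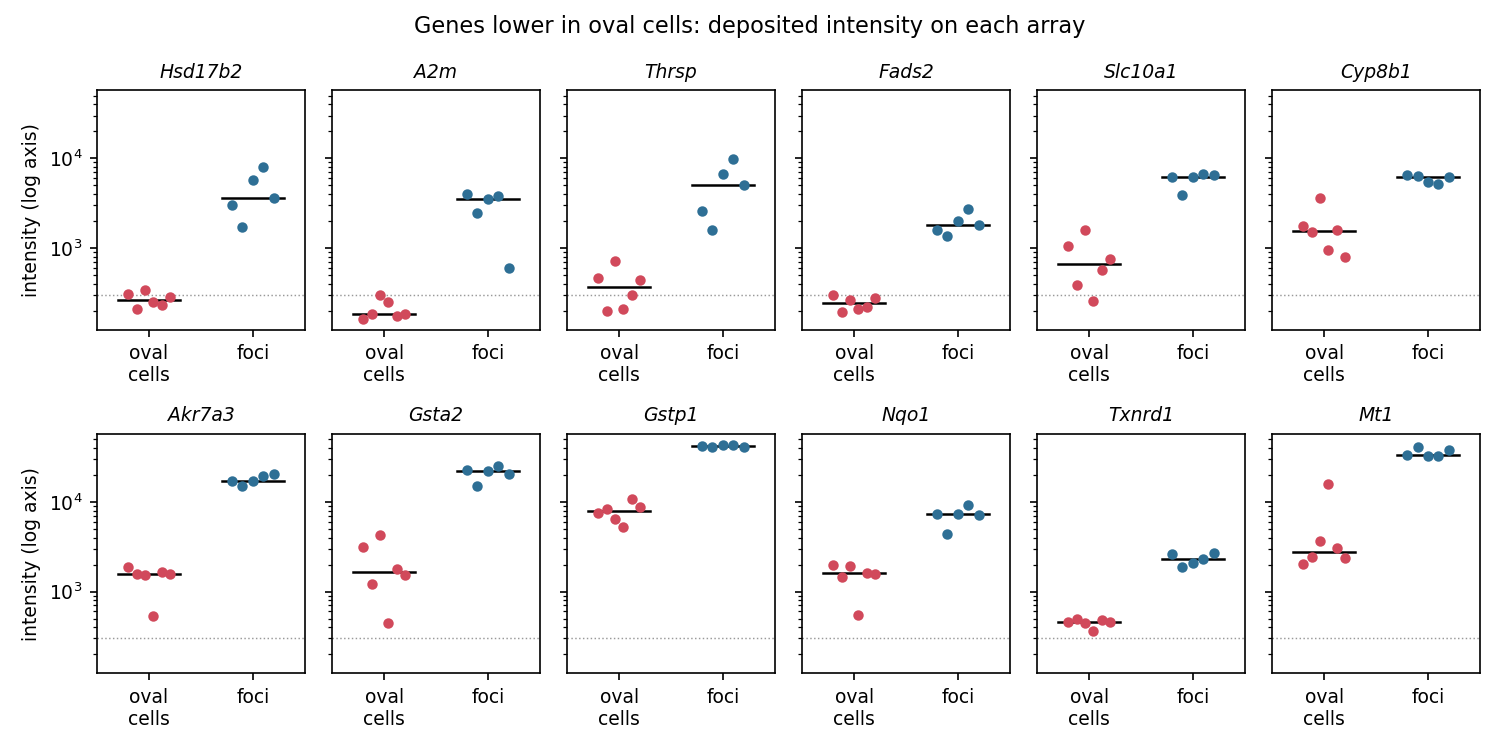
Deposited intensity (log axis) of 12 genes lower in oval cells, a point per array with oval cells left and preneoplastic foci right, the bar at each median and a dotted line at 300. No panel has overlapping groups, a trait that helped to choose some of these genes and held for 53.8% of all probes tested. Oval cell replicate 4 stands apart for Akr7a3, Nqo1, Txnrd1 and Mt1.

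Genes of lipid synthesis that passed the test were lower in oval cells with 1 exception. Of 13 tested fatty acid synthesis genes 6 were called lower and 1 higher. Thrsp, a nuclear regulator of lipogenesis, had 198, 368 and 722 in oval cells, against 2589, 1598, 6717, 9826 and 5078 in foci (15.4-fold lower, log2 difference -3.95 ± 0.50, SE, adjusted p = 9.25e-06), with the foci spread over a wide range. Fads2, a desaturase that makes polyunsaturated fatty acids, had 195, 242 and 301 in oval cells, against 1603, 1354, 2018, 2757 and 1795 in foci. Its groups were far apart, at 10.5-fold lower (log2 difference -3.40 ± 0.19, SE, adjusted p = 1.11e-08). The partner desaturase Fads1 was 8.58-fold lower. Scd, the desaturase of saturated fats in liver, was 5.13-fold lower with groups that overlapped, and its isozyme Scd2 was 4.18-fold higher, with 2175, 2625 and 4052 in oval cells, against 547, 666, 752, 708 and 869 in foci. Scd was named after its value was seen. Of 14 cholesterol synthesis genes 4 were called lower and 0 higher, led by Msmo1 (3.26-fold).

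Bile acid genes were called lower in 6 of 14 tested members and higher in 1. Slc10a1, the transporter that takes bile acids up from blood, had 256, 660 and 1569 in oval cells, against 6151, 3903, 6183, 6775 and 6584 in foci (10.3-fold lower, log2 difference -3.37 ± 0.43, SE, adjusted p = 9.22e-06). Cyp8b1, which sets the share of cholic acid, had 798, 1561 and 3592 in oval cells, against 6490.1, 6414, 5498, 5171 and 6151 in foci (4.11-fold lower, log2 difference -2.04 ± 0.31, SE, adjusted p = 4.46e-05). Cyp7a1, the rate-limiting enzyme of bile acid synthesis, was 5.64-fold lower, with overlapping groups and named after its value was seen. The exception was Cyp7b1, of the alternative pathway, 2.23-fold higher. Of 37 tested cytochrome P450 genes 9 were called lower and 2 higher, among them the steroid hydroxylase Cyp17a1 (7.26-fold lower) and Cyp1b1, an enzyme of mesenchymal cells (at least 3.46-fold higher). Cyp2c22 was bright in both groups and differed by 0.27.

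Secreted proteins of the hepatocyte were mostly not called. Of 36 tested plasma protein genes 3 (8.33%) were called lower, near the 6.32% of all genes tested, and 0 higher. Past the adjusted p alone 15 were lower and 3 higher, and the median log2 difference of the 36 was -0.24. Of all probes tested 72.1% passed it in either direction. Ttr, a carrier of thyroid hormone, had 19901, 23000 and 27555 in oval cells, against 22826, 15741, 23425, 23774 and 21328 in foci, a difference of 0.14 with an interval of -0.11 to 0.38. Cps1, of the urea cycle, had 9461, 16158 and 18788 in oval cells, against 17873, 19204, 16287, 14240.2 and 19016 in foci (-0.23, interval -0.57 to 0.10). Albumin could not be placed, because the brighter Alb probe differed by 0.46 and a second one by -0.97. Ttr and Cps1 were thus bright on the oval cell arrays too. Hsd17b2 and A2m, defining hepatocyte markers as well, were not, with medians of 266 and 183 in oval cells, and were called lower.

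Defb1, a defensin that the study names, had 171, 189 and 215 in oval cells, against 1752, 1243, 1067, 971 and 1623 in foci (at least 4.32-fold lower, log2 difference -3.38 ± 0.16, SE, adjusted p = 3.97e-09). Apof, an apolipoprotein, and Leap2, a peptide hormone of liver and gut, were 9.27-fold and 8.85-fold lower. The serpin Serpinf2, one of the plasma protein genes called lower, was 2.71-fold lower. Mt1, a metal-binding protein inside cells, had 2016, 2766 and 15741 in oval cells, against 33037, 41138, 32816, 32129.8 and 37814 in foci (10.1-fold lower, log2 difference -3.33 ± 0.42, SE, adjusted p = 8.56e-06), where a single oval cell array, replicate 4, held the highest value of its group by a wide margin. Of 14 tested genes on the acute phase list 3 were called lower, A2m, Mt1 and Sds, and 1 higher, the lipocalin Lcn2 (2.61-fold). Sds is an enzyme of amino acid breakdown rather than an acute phase protein, and 2 of the other 13 were called lower. Without foci replicate 2, and likewise without foci replicate 3, 2 were called higher.

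Of 33 tested genes of the urea cycle and amino acid breakdown 9 were called lower and 0 higher, among them Bhmt, which methylates homocysteine (3.98-fold), and Cbs (2.62-fold). Dao, which oxidises D-amino acids, had 199, 228 and 321 in oval cells, against 2105, 1171, 1644, 1991 and 1558 in foci (9.59-fold lower, log2 difference -3.26 ± 0.18, SE, adjusted p = 9.68e-09). Sds, serine dehydratase, was 9.73-fold lower although oval cell replicate 4 lay within the foci, at 5796 with the other oval cell arrays at 255 to 500.3, and its log2 difference was -4.00 without that array, against -3.28. Of 12 tested genes of hepatocyte glucose metabolism 3 were called lower, with Gys2, the liver glycogen synthase, at 3.76-fold and the fructokinase Khk at 3.01-fold. Of 23 fatty acid oxidation genes 5 were called lower and 1, Pdk4, higher, with overlapping groups. A further pair completed the 15 largest falls, the ubiquitin ligase Trim54 (at least 2.41-fold) and the neurofilament gene Nefl (at least 2.92-fold).

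Hepatocyte transcription factors were called lower in 4 of 10 tested members, among them Cebpa (2.52-fold), Foxa3 (2.47-fold) and the xenobiotic receptor Nr1i2 (2.1-fold), with 0 called higher (1 without foci replicate 5). Foxa2 differed by -0.75 and was not called, and Hnf4a stayed under a median of 300 in both groups. Hao2, a peroxisomal oxidase, had 348, 644 and 881 in oval cells, against 483, 481, 607, 753 and 621 in foci, and the groups overlapped (log2 difference 0.12 ± 0.24, SE, adjusted p = 0.645, interval -0.38 to 0.63). Car3 overlapped as well (log2 difference -0.95 ± 0.48, SE, adjusted p = 0.0928, interval -1.99 to 0.09), an interval that does not settle a 2-fold difference. Kit, Cd34 and Dhrs7, which the study also names, had no tested probe. Of 14 tested male-predominant liver genes 3 were called lower, a count that single arrays moved, to 1 without oval cells replicate 4 and to 6 without preneoplastic foci replicate 2.

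Genes of the ribosome, the proteasome, the respiratory chain and chaperones were rarely called. Of 56 tested ribosomal protein genes 0 were called in limma, though 32 passed the adjusted p alone, 21 higher and 11 lower. Of all probes tested 72.1% passed it in either direction. Of 32 proteasome subunit genes 1, Psma1, was called lower, with 10 higher and 13 lower past the adjusted p alone. Of 54 respiratory chain genes 1, Atp5mk, was called lower, while 3 were higher and 29 lower past the adjusted p alone, with a median log2 difference of -0.18. Of 15 chaperones 0 were called, with 12 past the adjusted p alone, 4 higher and 8 lower. Cell cycle genes were called in 1 of 30 tested members, Rrm2, a ribonucleotide reductase subunit, which had 1074, 1179 and 1251 in oval cells, against 3513, 2361, 2399.5, 2455 and 3933 in foci (2.55-fold lower, log2 difference -1.35 ± 0.13, SE, adjusted p = 9.88e-07). Past the adjusted p alone 10 cell cycle genes were higher and 4 lower, and the median log2 difference of the 30 was 0.21. The 30 summed to 37918 to 47706 in oval cells, against 29736 to 47994 in foci, so that the ranges overlapped. Of 12 immediate early genes 1 (8.33%), Dusp1 (2.62-fold), was called higher, as was 1 of 11 p53 target genes (9.09%), Aen (2.18-fold). Both shares were near the 9.27% of all genes tested.

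**Figure D5:**
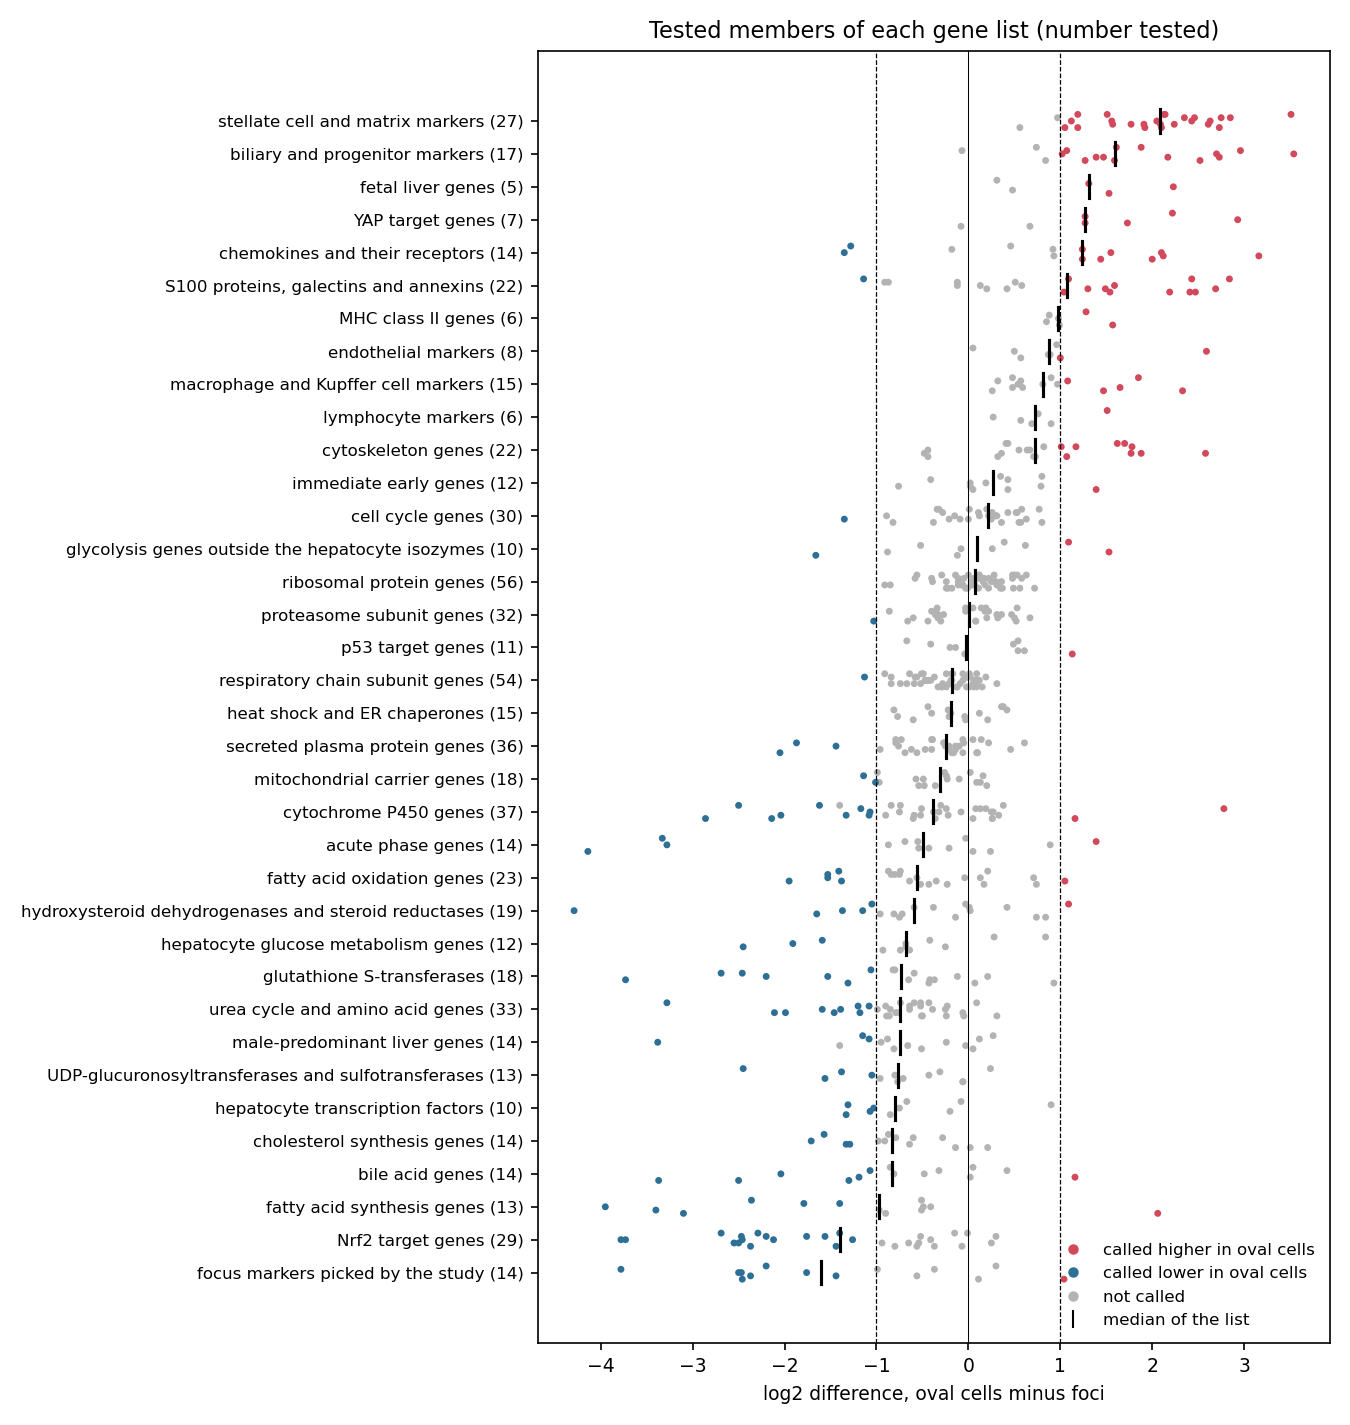
Log2 difference of oval cells minus preneoplastic foci for the tested members of each gene list with 5 or more, a point per gene and a black bar at the median, with dashed lines at 2-fold. Medians run from 2.09 (stellate cell and matrix markers) to -1.60 (focus markers picked by the study), and ribosomal protein and proteasome genes lie around 0.

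Promoters of RefSeq on GRCr8 were found for 366 of 472 genes called higher, for 273 of 322 called lower and for 4293 of 5092 tested. On either strand the antioxidant response element core TGACNNNGC was in 13.1% of promoters of genes called higher, in 52 of the 273 of those called lower and in 15.3% of all tested. The HNF4 motif CAAAGTCCA was in 0 of those called higher, in 2.20% of those called lower and in 0.489% of all tested. The TEAD motif GGAATG was in 14.2% of those called higher and in 14.7% of those called lower, and so set the 2 sides hardly apart. AP-1 (TGAGTCA) was in 3.83% and 5.49%, FOXA (TGTTTAC) in 2.46% and 2.93%, and the CCAAT box (CCAAT) in 34.2% and 41.8% of promoters of genes called higher and lower, against 3.52%, 2.63% and 39.1% of all tested. The sterol response element (TCACCCCAC), HNF1 and p53 motifs were in 0 promoters of genes called higher, and in 1, 0 and 0 of those called lower. These shares describe the letters of a short window and were not tested, and the AP-1 motif can overlap the element core.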

How the data were processed

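RNA from laser-microdissected rat liver was amplified and hybridised to Illumina RatRef-12 arrays, 1 per sample. The values used were deposited intensities per probe, which the authors read in BeadStudio (version 3.0.19.0) and normalized by quantiles. Another deposited table, with 26 columns under names that no label holds, was left out. The labels gave each array's group, and arrays were numbered within groups by accession. Background was corrected by normexp (offset 50), followed by quantile normalization and a fit in limma (version 3.58.1, R version 4.3.3) over the 11 arrays, with Benjamini-Hochberg adjustment over 6559 probes. No term for slide could be had. The number of arrays limits the precision. The script was tested on simulated data. Of all probes 13793 had 1 gene symbol, 0 several and 8730 none here, and 13752 matched RefSeq on GRCr8.

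Each gene is represented by its brightest probe on average. Named genes were the 15 largest differences in each direction among called genes with groups that did not overlap, Lox, Krt19, Hsd17b2, A2m, genes the study names, and from each list the 6 members of smallest adjusted p and up to 3 called exceptions. Members and lists were chosen with earlier results of these data known. Some genes stand on several lists, so the counts of lists overlap. Control arrays entered only 1 alternative.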

Additional observations from a re-analysis of the deposited data

Results flagged for a closer look

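In 14 of 256 groups of arrays (128 genes in oval cells and in foci) a single array lay far from the rest of its group, and chance gives about 1 in 20 groups. Oval cells replicate 4 accounted for 7. It was the lowest for Akr7a3 (536, the others 1544 to 1892), Nqo1 (546, the others 1464 to 1964), Txnrd1 (367, the others 451 to 496) and Cxcl1 (1407, the others 1898 to 2261). It was the highest for Cxcr4 (495, the others 359.7 to 397), Mt1 (15741, the others 2016 to 3681) and Sds (5796, the others 255 to 500.3). Foci replicate 2 was the highest for Lgals2 (1289.6, the others 783 to 893) and the lowest for Slc10a1 (3903, the others 6151 to 6775), Ttr (15741, the others 21328 to 23774) and Ugdh (9907, the others 13361 to 15085). Foci replicate 4 was the lowest for Loxl2 (192, the others 229.9 to 244) and Olfml2b (247, the others 295 to 309). Foci replicate 5 was the lowest for A2m (602, the others 2431 to 4020.2). These 2 arrays, oval cells replicate 4 and foci replicate 2, also had the lowest array weight of their groups (0.555 and 0.588), and without both 1045 probes were called, against 1026 with them, an alternative chosen after seeing the data.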

How the results depend on the processing

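No probe called in the contrast turned its direction under any of the alternatives run. The count of called probes was 1026 and ran over 986 to 1069 when each array was left out in turn (higher 532 to 578, lower 454 to 501). Without background correction 766 were called, at an offset of 16 1203, with cyclic loess 1016, with the median over all arrays as filter 921, with no filter 1054, with the methods' filter 903 of 1345 tested, with all 13 arrays 1026, with array weights 982 and by a t-test of each probe with Benjamini-Hochberg adjustment 1024. Centring on ribosomal protein probes gave 391 higher and 715 lower, and no fold limit 4730 (2327 higher and 2403 lower). That centring put Hao2 at -0.05 and Ttr at -0.04, the reverse of their uncalled differences.

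Of 128 genes named, 10 lost their call without background correction (Ccr1, Crim1, Cxcr4, Egfl7, Igf2, Krt7, Lgals9, Pdk4, Psma1 and Tgfb2) and 7 with that centring (Abcb1b, Aen, Akr1c19, Cyp7b1, Egfl7, Krt7 and Pdk4). Single arrays decided some calls near the limits. Abcb1b lost its call without oval cells replicate 1 (0.99) or foci replicate 1 (0.95), Krt7 without oval cells replicate 4 (0.99), Nr1i2 without oval cells replicate 6 (-0.94), Psma1 without foci replicate 4 (-0.99), Pdk4 without any of 3 arrays (0.93 to 0.99), and Egfl7 without any of 6 arrays (0.97 to 1.00). Car3 was called without oval cells replicate 1 (-1.16) or 6 (-1.17), Hba-a1 without oval cells replicate 3 (-1.06), and Cd74 without any of 5 arrays (1.00 to 1.08). Of the lists, cholesterol synthesis had 7 genes called lower, against 4, without oval cells replicate 3, and the 1 call for a higher level in fatty acid oxidation, Pdk4, was lost without oval cells replicate 3 or 4 or foci replicate 1. No paired analysis was possible because the numbers of the arrays follow the order of deposition and pair none. Signal limits dim genes, since a fitted fold against a group under 300 depends on the background step: Hsd17b2 was -3.86 without it and -4.56 at an offset of 16.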
